A study of Mus musculus with 59 samples.

Results

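The subject is sodium absorption against chloride secretion in the mouse uterus, described through 8 genes: the epithelial sodium channel subunits Scnn1a, Scnn1b and Scnn1g, the chloride channel Cftr, and 4 regulators of the sodium channel, Sgk1, Nedd4l, Spint1 and Spint2. They were taken by symbol from the 21706 genes of the deposited tables, and all 8 passed the filter on low counts in every tissue. RNA sequencing covered 59 libraries from 29 female mice. Luminal epithelium (LE) was scraped off the uterine lining after dispase treatment, whole undigested uterus is called U, and a piece of dispase-treated uterus kept before scraping is called DU. Control mice (Esr1f/-) carried 1 null and 1 floxed allele of Esr1, the gene of oestrogen receptor alpha. Knockout mice (epiERα-/-, genotype Esr1f/-Wnt7aCre/+) carried both of these alleles and Wnt7a-Cre, which recombines in the epithelium of the female reproductive tract, glands included, so that the other uterine cells keep the floxed allele. Every animal, control or knockout, thus had at most 1 working Esr1 allele in its stroma and muscle. The females were virgins of about 2 to 6 months, mated with wild-type studs, and were dissected on day 0.5 (D0.5) or day 3.5 (D3.5) post coitum. LE libraries numbered 9 control and 7 knockout at D0.5, and 4 control and 6 knockout at D3.5. U libraries numbered 6 and 4 at D0.5, and 5 and 5 at D3.5. DU libraries numbered 4 and 3 at D0.5, and 3 and 3 at D3.5. Libraries are numbered by mouse, so 1 number in LE, U and DU stands for 1 animal.

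The epithelial sodium channel, ENaC, is built from an alpha, a beta and a gamma subunit (Scnn1a, Scnn1b, Scnn1g) and lets sodium pass from the lumen into the cell, with water following. Cftr is a cyclic AMP-activated chloride and bicarbonate channel whose opening draws fluid into the lumen. ENaC and Cftr thus bear on how much fluid the uterus holds before implantation. Nedd4l is a ubiquitin ligase that removes ENaC from the membrane, Sgk1 is a steroid-induced kinase that blocks Nedd4l, and Spint1 and Spint2 are membrane-bound inhibitors of the serine proteases that cleave and open the channel.

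Promoter sequences are shown first for the 4 genes that the results below turn on. They are the 250 bases before the gene start in RefSeq's annotation of the GRCm38.p6 build, all on the plus strand. Scnn1g lies at chr7:121734229-121734478 and Scnn1b at chr7:121864788-121865037, as neighbours separated by 1 lncRNA gene in that annotation. Cftr lies at chr6:18170437-18170686. Sgk1 has 6 annotated starts, and the one shown, chr10:21993640-21993889, is the only one with a match to the glucocorticoid and progesterone motif. Capitals mark motif matches: the single oestrogen receptor arm GGTCA, which reads TGACC when it lies on the opposite strand, and in Sgk1 also the hormone response motif.
Scnn1g: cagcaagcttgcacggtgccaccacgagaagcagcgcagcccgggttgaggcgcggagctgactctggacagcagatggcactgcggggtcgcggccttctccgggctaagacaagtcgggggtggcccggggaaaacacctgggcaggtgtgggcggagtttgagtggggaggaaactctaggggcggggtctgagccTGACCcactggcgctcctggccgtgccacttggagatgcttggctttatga
Scnn1b: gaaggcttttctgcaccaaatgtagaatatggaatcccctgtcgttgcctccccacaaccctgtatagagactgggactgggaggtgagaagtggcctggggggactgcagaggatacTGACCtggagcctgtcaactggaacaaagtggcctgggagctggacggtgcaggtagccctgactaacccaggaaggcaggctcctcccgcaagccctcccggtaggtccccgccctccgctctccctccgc
Cftr: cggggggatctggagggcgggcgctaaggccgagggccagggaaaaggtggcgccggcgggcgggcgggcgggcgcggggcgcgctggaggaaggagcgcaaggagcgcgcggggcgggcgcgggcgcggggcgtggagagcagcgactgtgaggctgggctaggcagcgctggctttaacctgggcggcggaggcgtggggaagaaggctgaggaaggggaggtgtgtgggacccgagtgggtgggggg
Sgk1: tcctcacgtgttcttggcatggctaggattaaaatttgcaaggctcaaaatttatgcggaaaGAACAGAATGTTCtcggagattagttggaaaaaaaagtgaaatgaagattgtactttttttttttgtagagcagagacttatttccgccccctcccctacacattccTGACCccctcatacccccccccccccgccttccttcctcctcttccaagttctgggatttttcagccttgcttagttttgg

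Promoters of 6 of the 8 genes were searched, 11 in all, from RefSeq's promoter table. Scnn1a and Nedd4l were not searched. Each was searched on both strands over 300 bases, the 250 before the start and the 50 after it. The full oestrogen response element, GGTCA and TGACC set 3 bases apart, was found in none of the 11 and in 0.07% of all 32851 promoters. Scnn1g held 2 single arms, at position 200 and, after the start and so not shown, at position 296, counted from the 5′ end of the window. Scnn1b also held 2, at positions 119 and 275, the second after the start. Neither Cftr nor Spint1 held a single arm, Spint2 held 1, and 5 of the 6 Sgk1 promoters held at least 1, against 40.5% of all promoters. Sgk1 held the glucocorticoid and progesterone motif, GNACA and TGTNC set 3 bases apart, once, at position 63. The pattern is its own reverse complement, so any match counts on both strands. The match in Sgk1 overlaps no single arm. That motif occurs in 0.475% of all promoters. These are matches of letters and nothing more.

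Total counts per library ran from 13.5 M to 80.3 M in LE, 11.3 M to 108 M in U and 14.1 M to 46.2 M in DU. All 10 epithelial markers were detected in LE, where they summed to 3610 to 10200 TPM, the transcript abundance scaled for length and depth by the authors, while 8 stromal markers summed to 191 to 2200 TPM. Esr1 itself was lower in knockout LE, at 34.8 to 62.9 CPM, counts scaled for depth only, against 110 to 273 in controls at D0.5, and at 52.1 to 73.2 against 104 to 162 at D3.5. In U at D3.5 Esr1 overlapped between genotypes, at 123 to 212 CPM in knockouts and 135 to 195 CPM in the 5 controls. The library labelled knockout 33 held the 212 CPM, above every control. Other uterine cells keep the floxed allele, so Esr1 in U does not settle a label. RNA of each tissue was isolated as 1 batch, so tissue, digestion and isolation cannot be told apart where tissues are compared. Throughout, CPM values use the trimmed-mean library sizes of edgeR within a tissue, a log2 fold change (± SE) and its adjusted p come from edgeR's quasi-likelihood test with Benjamini-Hochberg adjustment over all genes of that tissue, and a gene is called, or said to rise or fall, at an adjusted p under 0.05.

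In LE at D0.5, the 3 sodium channel subunits were higher and Cftr was lower in knockout than in control mice. These 4 of the 8 genes were called, 3 higher and 1 lower, where 23.6% of all 15601 genes tested in LE were called, 10.9% as higher and 12.6% as lower. Sgk1, Nedd4l, Spint1 and Spint2 were not called. Scnn1g moved most, from a mean of 0.976 to 46.0 CPM.

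Scnn1g, the gamma subunit, lay between 0.396 and 2.43 CPM in the 9 controls, with a median of 0.769. In the 7 knockouts it lay between 15.1 and 96.3 CPM, with a median of 34.7. The lowest knockout was thus well above the highest control. The log2 fold change was 5.57 ± 0.72 (adjusted p = 2.31e-06), a 47.5-fold difference. The 9 control libraries hold 211 counts of Scnn1g in all and the 7 knockout libraries 8007, so the control level is the imprecise part of that fold. Scnn1b, the beta subunit, ranged from 19.3 to 101 CPM in controls (median 44.7). In knockouts Scnn1b ranged from 74.3 to 288 CPM (median 174). Control 1, at 101 CPM, reached into the knockout range, above knockouts 24 and 27, and the other 8 controls stayed below every knockout. The log2 fold change of Scnn1b was 1.77 ± 0.57 (adjusted p = 0.0244), and without knockout 21, the highest library, it was 1.59 with an adjusted p of 0.0523. Scnn1a, the alpha subunit, was the least abundant of the gains. It ranged from 2.1 to 13.8 CPM in controls (median 7.69) and from 11.5 to 48.5 CPM in knockouts (median 21.3), with control 2 above knockout 24. Its log2 fold change was 1.61 ± 0.29 (adjusted p = 1.76e-04).

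Cftr moved the other way. Controls lay between 71.2 and 237 CPM (median 147) and knockouts between 20.8 and 65.1 CPM (median 27.7). The groups did not overlap, although knockout 24, at 65.1 CPM, came close to control 9 at 71.2 CPM. The log2 fold change was -2.24 ± 0.28 (adjusted p = 1.46e-06), so that controls held 4.71 times as much. Scnn1g and Cftr are the 2 genes of the 8 whose groups did not overlap, which held for 6.28% of all genes tested.

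**Figure D1:**
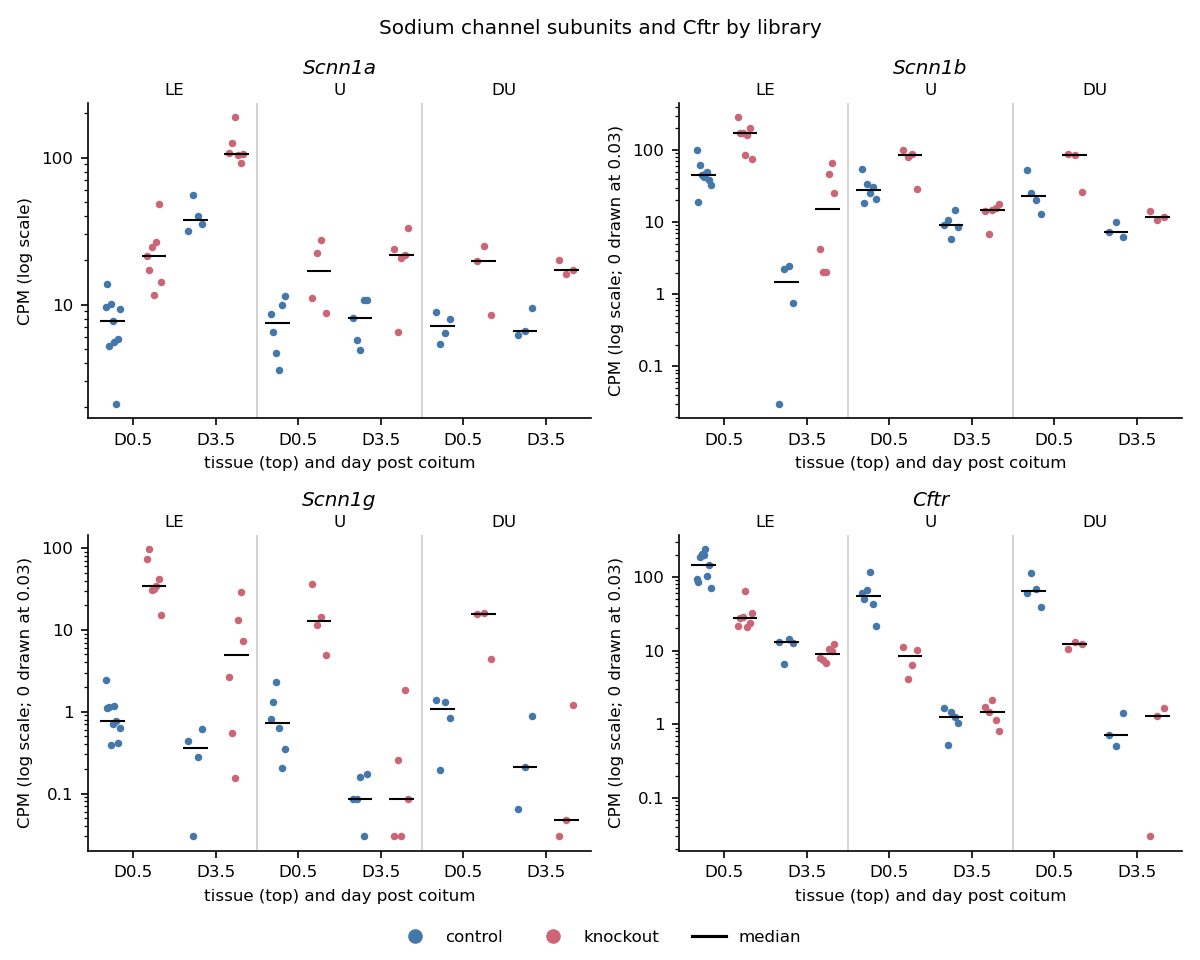
CPM of Scnn1a, Scnn1b, Scnn1g and Cftr (log axis; 0 drawn at 0.03) in each library, 1 point per mouse, by tissue, day and genotype, with a line at the group median. In LE at D0.5, knockout points of Scnn1g lie between 15.1 and 96.3 CPM, above all control points (0.396 to 2.43), while those of Cftr (20.8 to 65.1) lie below all control points (71.2 to 237).

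The 4 regulators showed smaller differences at D0.5. Spint2, at 1124 to 2500 CPM in controls (median 1453), lay between 934 and 1521 CPM in knockouts (median 1241), with a log2 fold change of -0.39 ± 0.15 (adjusted p = 0.0652). Spint1 differed by -0.46 ± 0.20 on the log2 scale (adjusted p = 0.0972), Nedd4l by 0.24 ± 0.14 (adjusted p = 0.239) and Sgk1 by -0.22 ± 0.32 (adjusted p = 0.691). All 4 overlapped between genotypes. Leaving out control 2 or knockout 21 brought both protease inhibitors under the threshold, Spint2 at 0.0323 or 0.038 and Spint1 at 0.0477 or 0.0499, as lower in knockouts.

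Marker genes of other cells moved in the same comparison. Neutrophil markers summed to 2980 to 9850 TPM in knockout LE at D0.5 and to 28.7 to 1350 TPM in controls, with 6 of 7 tested higher and 1 lower. Epithelial markers summed to 3610 to 5580 TPM in knockouts and 5830 to 10200 TPM in controls, and 6 of 10 fell, with a median log2 fold change of -0.76 over the list. Of 5 gland markers tested, Foxa2 and Cxcl15 rose, and the list of 8 summed to 61.2 to 157 TPM against 41.1 to 72.8 TPM. The part of these markers in the differences above was not tested. Markers of stratified epithelium summed to 3.14 to 265 TPM in controls and 1.84 to 153 TPM in knockouts, with 1 higher and 2 lower of 7 tested. Their part was not tested either. In bulk tissue, fewer cells of a type and less RNA per cell cannot be told apart.

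In LE at D3.5 the knockout still held more of the 3 subunits, Sgk1 was higher too, and Cftr was low in both genotypes. Here 4 of the 8 genes were called, all higher, beside 13.5% of all genes (7.79% as higher). Scnn1a and Sgk1 separated the genotypes fully, while Scnn1b and Scnn1g were high in 3 of the 6 knockout libraries.

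Scnn1a stood at 31.8, 55.7, 40.2 and 35.3 CPM in controls 11, 14, 15 and 16. The 6 knockouts ranged from 91.9 to 189 CPM, with a median of 106, all above the highest control. The log2 fold change was 1.56 ± 0.39 (adjusted p = 0.00713). Sgk1, the kinase that keeps ENaC at the membrane, stood at 55.0 and 43.1 CPM in controls 11 and 14 and at 13.7 and 13.3 CPM in controls 15 and 16. Knockouts ranged from 60.5 to 265 CPM (median 141), again above every control, although knockout 34 exceeded control 11 only by a little. Sgk1 had a log2 fold change of 2.23 ± 0.44 (adjusted p = 0.00107). These were the 2 genes of the 8 without overlap, beside 10% of all genes.

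Scnn1b was 0 in control 11, 2.25 in control 14, 2.44 in control 15 and 0.759 CPM in control 16. In knockouts 31, 32 and 34 it stood at 4.20, 2.05 and 2.04 CPM, and in knockouts 35, 36 and 37 at 47.0, 66.7 and 25.8 CPM. The first 3 knockouts thus lay at or near the control range and the other 3 far above it. Over all libraries the log2 fold change was 4.15 ± 0.93 (adjusted p = 0.00300; 0.054 when only these 2 groups were fitted). Scnn1g followed the same libraries: it stood at 0.436, 0, 0.276 and 0.607 CPM in the 4 controls, from 24 counts in all. Knockouts 31, 32 and 34 held 2.63, 0.552 and 0.153 CPM of Scnn1g, and knockouts 35, 36 and 37 held 13.3, 28.9 and 7.32 CPM. Its log2 fold change was 4.79 ± 1.06 (adjusted p = 0.00286), with the groups overlapping through knockouts 32 and 34.

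Without knockouts 35, 36 and 37, Scnn1b (log2 fold change 1.04, adjusted p = 0.41) and Scnn1g (1.86, adjusted p = 0.216) were no longer called, while Scnn1a (1.81) and Sgk1 (1.50) still were. The same 3 libraries stood apart in markers of stratified epithelium, which summed to 514, 581 and 211 TPM there. The sum was 32.0, 29.5 and 21.1 TPM in knockouts 31, 32 and 34 and 13.2, 54.8, 8.58 and 3.22 TPM in controls 11, 14, 15 and 16. Of the 7 stratified markers tested, edgeR called 0 and 3 had an unadjusted p under 0.05, with a median log2 fold change of 2.97, while DESeq2 called 2 and limma on log2(TPM + 1) called 2. Of the 8 listed, 1 was at 0 in both genotypes. Sgk1 was also highest in these 3 libraries, at 190, 168 and 265 CPM in knockouts 35, 36 and 37 against 83.6, 114 and 60.5 CPM in knockouts 31, 32 and 34. The part of these cells in the Scnn1b, Scnn1g and Sgk1 values was not tested. Gland markers also differed, at 53.6 to 102 TPM in knockouts and 12.6 to 32.1 TPM in controls, and their part was not tested either. Erythroid markers summed to 102 to 1960 TPM in knockouts and 1640 to 6490 TPM in controls.

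**Figure D2:**
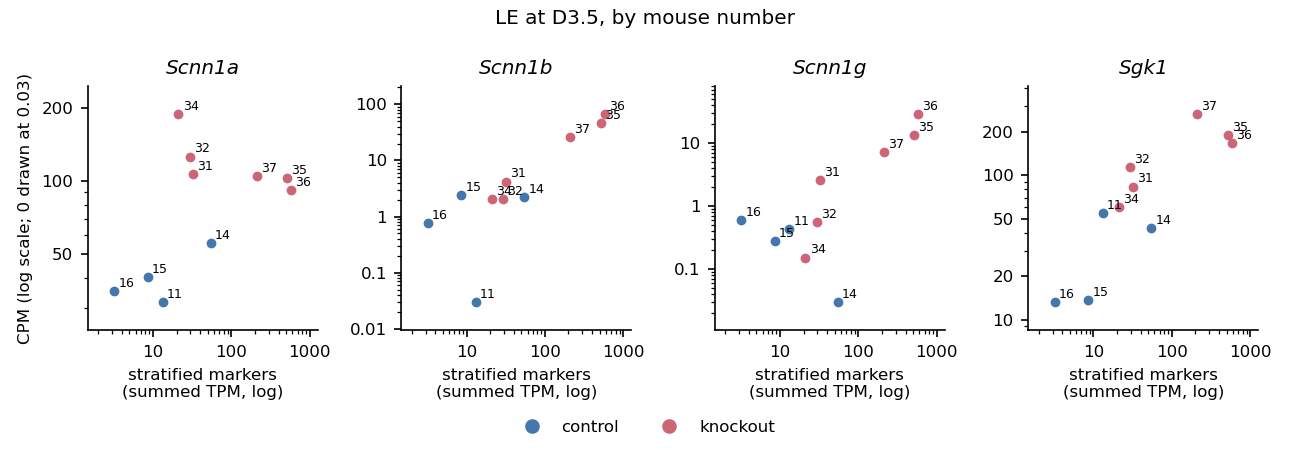
CPM of Scnn1a, Scnn1b, Scnn1g and Sgk1 (log axis, 0 drawn at 0.03) against the summed TPM of 8 stratified epithelium markers (log axis) in the 10 LE libraries at D3.5, each point 1 mouse with its number. Knockouts 35, 36 and 37, with marker sums of 211 to 581 TPM, hold the highest Scnn1b and Scnn1g, whereas Scnn1a is above all controls in the other 3 knockouts as well.

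Cftr at D3.5 stood at 13.1, 6.65, 14.1 and 12.8 CPM in the 4 controls and at 6.87 to 12.2 CPM in the 6 knockouts (median 8.87). The ranges overlapped, and the log2 fold change of -0.35 ± 0.34 was not called (adjusted p = 0.57). Nedd4l, Spint1 and Spint2 differed by -0.19 ± 0.18, 0.01 ± 0.25 and -0.25 ± 0.19 on the log2 scale, none of them called. Scaling matters at D3.5, because on the authors' TPM scale, as log2(TPM + 0.1), the median gene was 0.42 higher in knockout than in control LE. The 4 called genes were called on that scale as well, and Cftr, uncalled on either, changed sign.

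In whole uterus at D0.5 the same genes differed in the same direction as in LE. There 3 of the 8 genes were called, Scnn1b and Scnn1g higher and Cftr lower, beside 4.98% of all genes in U (2.02% higher, 2.96% lower). Scnn1g ranged from 0.207 to 2.31 CPM in 6 controls (median 0.726) and stood at 36.4, 11.4, 14.4 and 4.94 CPM in knockouts 21, 25, 26 and 27. No knockout overlapped the controls, and the log2 fold change was 4.14 ± 0.86 (adjusted p = 0.00634). Cftr ranged from 21.9 to 118 CPM in controls (median 55.1) and stood at 11.3, 4.14, 6.36 and 10.3 CPM in knockouts. It was lower in all 4 knockouts than in any control, and with Scnn1g made 2 of the 8 genes without overlap, beside 4.56% of all genes (log2 fold change -2.91 ± 0.42, adjusted p = 2.89e-04). Scnn1b stood at 99.6, 79.6, 89.0 and 28.9 CPM in knockouts and ranged from 18.8 to 54.2 CPM in controls (median 27.9). Knockout 27 lay inside the control range, and the log2 fold change was 1.29 ± 0.33 (adjusted p = 0.0277). The call was lost without control 2, 5 or 9 or knockout 21, 25 or 26, at adjusted p of 0.053 to 0.0858. With all mice kept, it was also lost with only the groups compared (0.0878) and with limma on unfiltered log2(TPM + 1) (0.0519). Scnn1a, at 11.1, 22.6, 27.4 and 8.77 CPM in knockouts and 3.59 to 11.5 CPM in controls (median 7.52), had a log2 fold change of 1.23 ± 0.40 with an adjusted p of 0.0834. Neutrophil markers moved here too, with sums of 4650 to 11500 TPM against 249 to 2070 TPM, and epithelial markers summed to 1590 to 1860 TPM against 2390 to 5410 TPM; their part was not tested.

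Digested uterus gave 3 calls at D0.5 beside 8.06% of all genes (3.89% higher, 4.17% lower), with Scnn1a and Scnn1g higher and Cftr lower. Scnn1a was 19.6, 25.1 and 8.52 CPM in knockouts 25, 26 and 27 and 8.87, 5.36, 6.39 and 8.01 CPM in controls 1, 5, 8 and 9 (log2 fold change 1.30 ± 0.31, adjusted p = 0.0218). Scnn1g was 15.7, 16.2 and 4.35 CPM in knockouts and 1.40, 0.196, 1.33 and 0.83 CPM in controls (3.63 ± 0.94, adjusted p = 0.0322). Cftr was 10.6, 13.2 and 12.2 CPM in knockouts and 59.6, 114, 69.2 and 39.4 CPM in controls (-2.55 ± 0.53, adjusted p = 0.0114). Scnn1g and Cftr separated the genotypes, as did Sgk1 and Spint2, which were not called, making 4 of the 8 beside 17.7% of all genes. Knockout 27 lay inside the control range of Scnn1a. These calls rest on few mice: Scnn1a lost its call without control 5 or knockout 25 or 26 (adjusted p up to 0.0815), Scnn1g without control 5, 8 or 9 or knockout 25 or 26 (up to 0.0914), and Cftr without knockout 25 (0.0517). With all mice kept, Scnn1a also lost its call with only the groups compared (0.091). The same held for limma on log2(TPM + 1), filtered (0.0512) or not (0.0843), and on log2(TPM + 0.1) (0.053). Scnn1b, at 87.2, 85.4 and 26.2 CPM against 52.5, 25.4, 20.6 and 12.9 CPM, was not called (1.24 ± 0.43, adjusted p = 0.0959), but was without control 1 (0.0129) or knockout 27 (0.0359). Neutrophil markers summed to 3860 to 10000 TPM in DU knockouts and 264 to 1560 TPM in controls, with 4 of 7 tested higher. Gland (3 of 5 tested), stroma (3 of 8) and smooth muscle markers (3 of 6) were also higher in part, and 2 of 10 epithelial markers were lower. The part of all these was not tested.

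At D3.5 none of the 8 genes was called in U by edgeR, with 1 at an unadjusted p under 0.05 and 0 by DESeq2 or limma. Only 3 genes of the whole table, 0.0185%, were called there. Scnn1a stood at 8.04, 5.74, 4.94, 10.7 and 10.7 CPM in controls and at 23.9, 20.9, 21.7 and 33.3 CPM in knockouts 32, 34, 35 and 37. The library labelled knockout 33, whose Esr1 was above every control, held 6.49 CPM of Scnn1a, inside the control range. With it the log2 fold change was 1.40 ± 0.40 (adjusted p = 0.389), and without it 1.63 (adjusted p = 0.0382), when 0.693% of all genes were called. In DU at D3.5 none of the 8 was called by edgeR either, beside 0.574% of all genes; 1 had an unadjusted p under 0.05, 1 was called by DESeq2 and 0 by limma. That gene was again Scnn1a, at 20.2, 16.2 and 17.2 CPM in knockouts and 6.24, 6.62 and 9.48 CPM in controls. Its groups did not overlap, nor did those of Scnn1b, making 2 of the 8 beside 18.9% of all genes, and the log2 fold change of 1.25 ± 0.33 had an adjusted p of 0.178 (0.0222 by DESeq2). Over all 6 genotype comparisons, the fitted difference of Scnn1a lay between 1.23 and 1.61 on the log2 scale, always toward the knockout. In the main edgeR fits Scnn1a was not called in U on either day or in DU at D3.5. DESeq2 called it in U at D0.5 (1.21, adjusted p = 0.0355), and edgeR on only the groups compared called it in DU at D3.5 (adjusted p = 0.0207). Many mice gave more than 1 tissue, so the 6 comparisons are not independent.

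**Figure D3:**
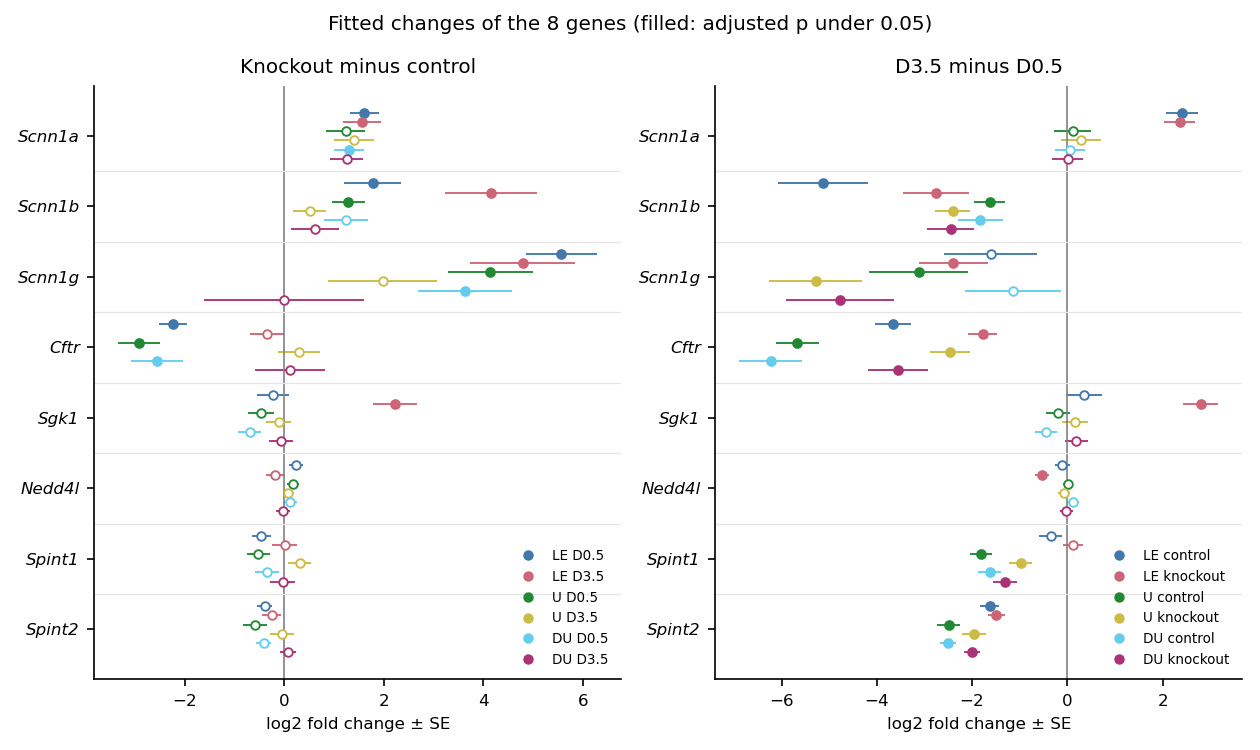
Fitted log2 fold changes (± SE) of the 8 genes for knockout minus control (left) and D3.5 minus D0.5 (right), 1 colour per comparison, filled where the adjusted p was under 0.05. Scnn1a lies right of 0 in all 6 genotype comparisons, while Cftr lies between -2.91 and -2.24 at D0.5 and near 0 at D3.5.

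From D0.5 to D3.5, Scnn1a rose in LE while Scnn1b, Cftr and Spint2 fell, in both genotypes. In control LE 4 of the 8 genes were called, 1 higher and 3 lower, beside 44% of all genes (21.2% higher, 22.8% lower). In knockout LE 7 were called, 2 higher and 5 lower, beside 41.6% (21.4% higher, 20.2% lower). In U, 5 genes fell in controls, beside 34.2% of all genes called and 18% lower, and 5 in knockouts, beside 25.5% and 14.6%. The count in U controls includes Scnn1g, which failed the filter on low counts when the control U groups were fitted alone. In DU, 4 fell in controls, beside 34.4% and 18.5%, and 5 in knockouts, beside 30.2% and 17.3%. Groups did not overlap for 4 of the 8 genes in control LE and 6 in knockout LE, beside 23.9% and 21.5% of all genes. In U that held for 5 in each genotype, beside 20.9% and 22.2%, and in DU for 5 in each, beside 41.7% and 44.1%. The 5 of control U again include Scnn1g. Comparisons of genotype and of day share libraries, so their values are set side by side only.

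Scnn1a rose by 2.41 ± 0.33 on the log2 scale in control LE (adjusted p = 1.14e-06), from a median of 7.69 to 37.8 CPM, and by 2.36 ± 0.33 in knockout LE (adjusted p = 1.77e-06), from a median of 21.3 to 106 CPM. In each genotype the lowest library at D3.5 exceeded the highest at D0.5. In U and DU the day differences of Scnn1a were 0.11 ± 0.38, 0.28 ± 0.42, 0.06 ± 0.31 and 0.01 ± 0.33, and none was called. Scnn1b took the other course. In control LE its log2 fold change was -5.13 ± 0.95 (adjusted p = 7.71e-05), from 19.3 to 101 CPM at D0.5 to at most 2.44 CPM at D3.5. In knockout LE it was -2.76 ± 0.69 (adjusted p = 0.00201), or -5.93 without knockouts 35, 36 and 37. Scnn1b also fell in U, with log2 fold changes of -1.63 ± 0.33 in controls and -2.41 ± 0.36 in knockouts, and in DU, at -1.83 ± 0.47 and -2.45 ± 0.49.

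Scnn1g was near its floor in controls on both days, and its day change of -1.61 ± 0.97 in control LE was not called (adjusted p = 0.19). In knockout LE Scnn1g fell, by a log2 fold change of -2.39 ± 0.72 (adjusted p = 0.00886), from 15.1 to 96.3 CPM at D0.5 to 0.153 to 28.9 CPM at D3.5, or -5.38 without knockouts 35, 36 and 37. In knockout U the fold change was -5.29 ± 0.98 (adjusted p = 4.01e-04) and in knockout DU -4.78 ± 1.13 (adjusted p = 0.00624). All 4 knockout U libraries at D0.5 were above all 5 at D3.5, where 42 of the 50 Scnn1g counts came from knockout 35. The log2 fold change of -3.12 ± 1.04 in control U (adjusted p = 0.0248) rests on 113 counts at D0.5 and 12 at D3.5. It lost its call without control 3, 11, 12 or 14 (adjusted p of 0.0513 to 0.063) and on the TPM scale (-1.48 with a pseudocount of 0.1, adjusted p = 0.0683). Scnn1g failed the filter on low counts when the control U groups were fitted alone.

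Cftr fell with day in all 6 tissue and genotype combinations. Control LE changed by -3.66 ± 0.38 on the log2 scale (adjusted p = 1.53e-08), from 71.2 to 237 CPM to 6.65 to 14.1 CPM. Knockout LE, already low at D0.5, changed by -1.78 ± 0.30 (adjusted p = 2.99e-05). No library at D3.5 reached the D0.5 range of its own genotype. In U Cftr changed by -5.67 ± 0.45 in controls and -2.46 ± 0.42 in knockouts, to between 0.518 and 2.14 CPM in all 10 libraries. In DU the changes were -6.22 ± 0.66 and -3.56 ± 0.63. Part of the U and DU tissue changed as well: 9 of 10 epithelial markers fell in control U (median log2 fold change -2.54) and 6 of 10 in knockout U (-1.11). In DU 9 fell in controls and 7 in knockouts. Neutrophil markers fell too, 7 of 7 tested in control and 6 of 7 in knockout U. The part of these markers in the U and DU day changes was not tested; the same holds for LE. In control LE the epithelial markers summed to 5830 to 10200 TPM at D0.5 and 4900 to 6200 TPM at D3.5, with 5 of 10 lower and 1 higher, and in knockout LE to 3610 to 5580 and 4870 to 7750 TPM, with 3 lower and 2 higher. Between days, neutrophil markers fell in LE in 5 of 7 tested (controls) and 7 of 7 (knockouts). Erythroid markers rose in 5 of 5 tested in control and 1 of 5 in knockout LE, and endothelial markers in 4 of 6 in control LE. The part of these markers in the LE day changes of Scnn1a, Scnn1b, Cftr and Sgk1 was not tested.

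Among the regulators, Sgk1 rose with day in knockout LE, by 2.80 ± 0.37 on the log2 scale (adjusted p = 8.12e-07), from 10.2 to 30.4 CPM (median 21.8) to 60.5 to 265 CPM (median 141). Without knockouts 35, 36 and 37 the change of Sgk1 was 2.01 (adjusted p = 2.13e-04). In control LE it differed by 0.35 ± 0.38 (adjusted p = 0.485), with controls 11 and 14 above most D0.5 controls and controls 15 and 16 below all of them. In U and DU Sgk1 was not called between days. Spint2, the more abundant protease inhibitor, fell in all 6 combinations, with log2 fold changes of -1.63 ± 0.20 and -1.49 ± 0.17 in control and knockout LE, -2.49 ± 0.24 and -1.96 ± 0.25 in U, and -2.50 ± 0.17 and -2.01 ± 0.17 in DU. Its D3.5 libraries lay below all D0.5 libraries of the same tissue and genotype. Spint1 fell in U, with -1.81 ± 0.23 and -0.98 ± 0.24, and in DU, with -1.63 ± 0.24 and -1.31 ± 0.25. In LE Spint1 differed by -0.35 ± 0.24 in controls and 0.12 ± 0.22 in knockouts, neither called, although on the TPM scale it was called as higher in knockouts (0.58, adjusted p = 0.0181, with the median gene 0.47 higher). Nedd4l was called once, at -0.53 ± 0.15 in knockout LE (adjusted p = 0.00716), and on the TPM scale that difference was -0.01 (adjusted p = 0.948).

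**Figure D4:**
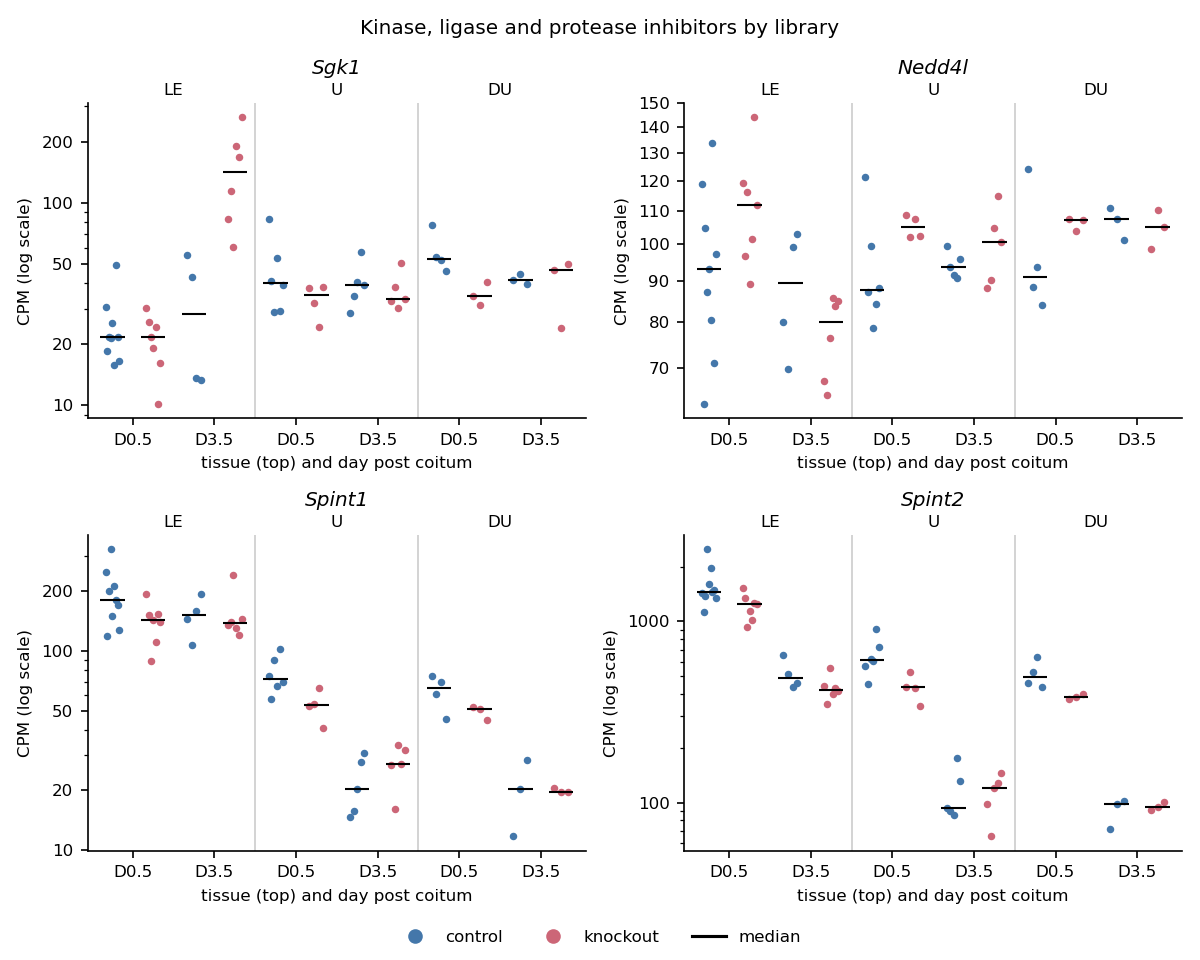
CPM of Sgk1, Nedd4l, Spint1 and Spint2 (log axis) in each library, 1 point per mouse, by tissue, day and genotype, with a line at the group median. The 6 knockout LE libraries at D3.5 lie at 60.5 to 265 CPM of Sgk1, above the other 20 LE libraries, and Spint2 is lower at D3.5 than at D0.5 in each tissue.

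Whether the genotype difference itself changed between days was tested as the difference of the 2 log2 fold changes. In LE 2 of the 8 genes were called, both upward, beside 16.5% of all genes (9.52% upward). Cftr went from lower in knockouts at D0.5 to no called difference at D3.5, a change of 1.89 ± 0.44 (adjusted p = 0.00356). Sgk1 went from no called difference to higher, a change of 2.45 ± 0.54 (adjusted p = 0.00227). For Scnn1b the change of 2.38 ± 1.02 had an adjusted p of 0.116, for Scnn1g the change was -0.78 ± 1.22 (adjusted p = 0.726), and for Scnn1a it was -0.05 ± 0.46 (adjusted p = 0.965). Without knockouts 35, 36 and 37 the change of Scnn1g became -3.75 (adjusted p = 0.0206). These libraries held the highest Scnn1g of the D3.5 knockouts, so leaving them out fixes the direction of that shift and its p is no test. With all libraries, limma on log2(TPM + 1) gave -1.90 (adjusted p = 0.0379). In U Cftr alone was called, at 3.21 ± 0.58 (adjusted p = 0.00995), beside 1.43% of all genes (0.943% upward). In DU none of the 8 was called by edgeR, beside 1.88% of all genes. Cftr, at 2.66 ± 0.87 (adjusted p = 0.147), was 1 of the 3 with an unadjusted p under 0.05, DESeq2 called 0 and limma on log2(TPM + 1) called 1.

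Levels of the 3 subunit transcripts can be set side by side in TPM, which divides by transcript length. They say nothing of the make-up of the channel protein. Among the 3 subunits, Scnn1b was the most abundant in 45 of the 59 libraries and Scnn1a in the other 14, while Scnn1g was the least abundant in 50. In control LE at D0.5, median shares of the summed subunit TPM were 9.29% Scnn1a, 89.9% Scnn1b and 1.28% Scnn1g. In knockout LE at D0.5 they were 7.78%, 77.1% and 13.5%. Scnn1g therefore passed Scnn1a in all 7 knockout LE libraries at D0.5, which happened in none of the 9 controls. At D3.5 the order turned over: the median share of Scnn1a was 94.8% in control LE and 80.7% in knockout LE. Those of Scnn1b were 4.22% and 15.1%, and those of Scnn1g 1.17% and 4.21%. Among the D3.5 knockouts, Scnn1a made up 92.0%, 97.2% and 98.4% in libraries 31, 32 and 34 and 55.1%, 41.1% and 69.4% in libraries 35, 36 and 37.

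Set against Cftr, the summed subunits came to a median of 0.93 times the Cftr TPM in control LE at D0.5 (0.586 to 3.07) and 26.1 times in knockout LE (4.97 to 45.2). At D3.5 the ratio was 5.38 in controls (4.62 to 16.5) and 32.4 in knockouts (23.1 to 50.1). The genotypes did not overlap in this ratio on either day. Cftr exceeded the 3 subunits together in 8 libraries: 6 of the 9 control LE, 1 control U and 1 control DU, all at D0.5. In U the median ratio went from 1.99 in controls to 42.3 in knockouts at D0.5, and stood at 43.1 and 49.6 at D3.5. The ratio is a description of transcript levels and combines genes tested above, so it carries no test of its own.

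**Figure D5:**
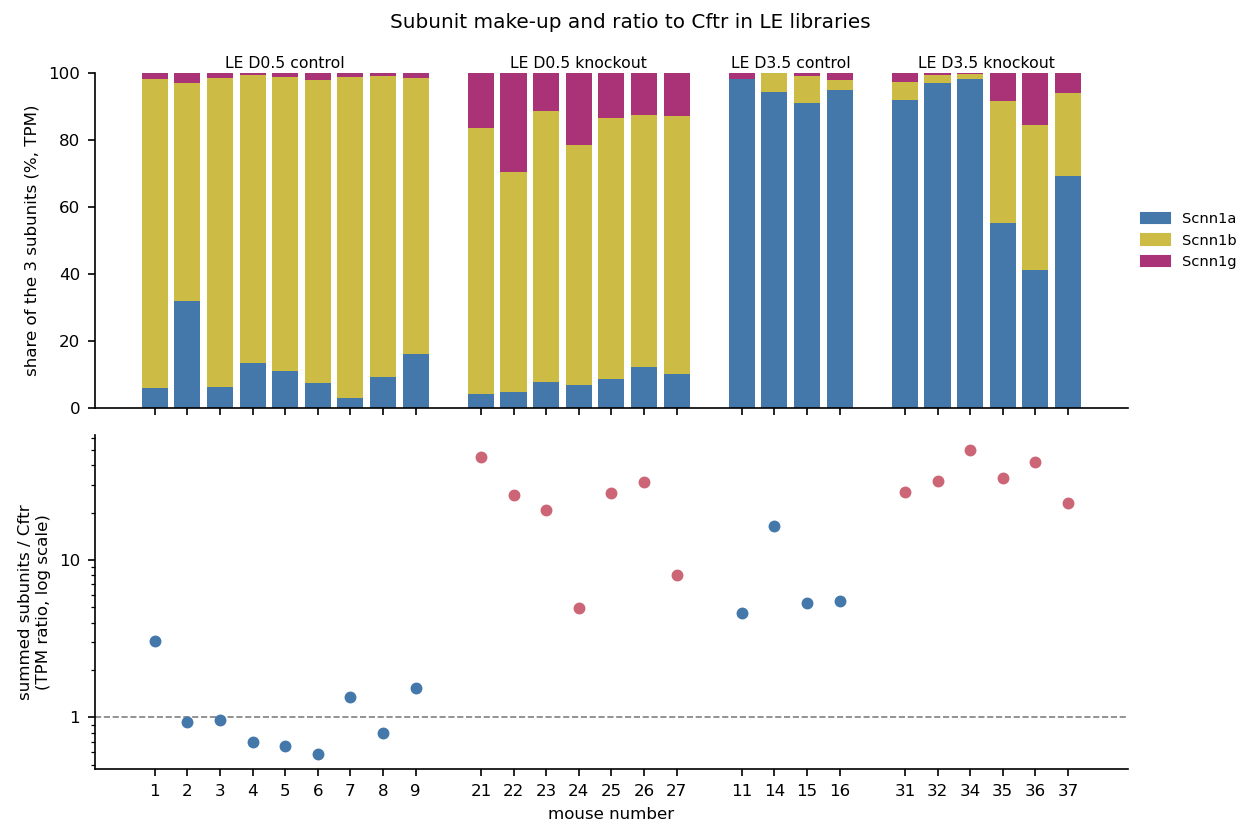
Top, the share of each sodium channel subunit in their summed TPM (percent, stacked bars), and bottom, the ratio of summed subunit TPM to Cftr TPM (log axis, 1 point per library, dashed line at 1), for the 26 LE libraries by mouse number, day and genotype. Knockout points lie at 4.97 to 45.2 at D0.5 and 23.1 to 50.1 at D3.5, above all control points of the same day (0.586 to 3.07 and 4.62 to 16.5).

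Group mean levels in TPM put knockout LE at D3.5 first for Scnn1a, at 54.5 ± 12.8 (SD, n = 6), followed without overlap by control LE at D3.5, at 14.5 ± 5.87 (n = 4). The other 10 groups lay between 2.35 and 7.68 TPM, each overlapping its neighbour in the order. Scnn1b was highest in knockout LE at D0.5 (81.5 ± 39.8, n = 7) and lowest in control LE at D3.5 (0.78 ± 0.73, n = 4), which stood clear of the next group up, while every other pair of neighbours overlapped. For Scnn1g the 4 highest groups were all knockouts, from 18.4 ± 11.7 TPM in LE at D0.5 to 4.84 ± 2.69 in DU at D0.5. The other 8 groups had means of 0.41 TPM or less and overlapped in turn. Cftr led in control LE at D0.5 (25.0 ± 10.1, n = 9), with control DU and U at D0.5 next (14.1 and 10.7), and its 4 lowest groups were U and DU at D3.5, all at or below 0.282 TPM. Sgk1 led in knockout LE at D3.5 (101.9 ± 54.7), whose lowest library overlapped control DU at D0.5 (32.6 ± 8.43), and the other means lay at 11.1 to 26.3 TPM. Spint2 ran from 1648 ± 345 TPM in control LE at D0.5 to 128 ± 20.7 in control DU at D3.5, and Spint1 from 110 ± 24.4 in knockout LE at D3.5 to 12.3 ± 3.01 in control U at D3.5. Nedd4l varied least among the 8, with group means between 31.0 and 47.7 TPM and every group overlapping the next.

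The next comparison sets LE against U, with the limit that digestion and isolation go with the tissue. In LE against U, 3 of the 8 genes were higher in LE in D0.5 controls, where 46.6% of all genes were called and 20.2% were higher. In D0.5 knockouts 4 were higher, beside 38.4% called and 15.8% higher. In D3.5 controls 4 were higher and Scnn1b lower, beside 50.1% called, 23.5% higher and 26.5% lower. In D3.5 knockouts 6 were higher, beside 47% called and 23.1% higher. Cftr was higher in LE in all 4, with log2 differences of 1.57 ± 0.31, 2.27 ± 0.39, 3.67 ± 0.42 and 3.01 ± 0.39. Spint1 (1.58 to 3.15) and Spint2 (1.55 to 2.51) were higher in LE in all 4 as well. Scnn1a was higher in LE at D3.5 only among the called results, by 2.71 ± 0.43 in controls and 2.86 ± 0.41 in knockouts. Its D0.5 differences were 0.31 ± 0.33 and 0.70 ± 0.40. Scnn1b in D3.5 controls was lower in LE than in U, at -2.47 ± 0.74 on the log2 scale (adjusted p = 0.00522), with 0 to 2.44 CPM in LE and 5.83 to 14.7 CPM in U. Scnn1g (4.66 ± 0.95) and Sgk1 (2.33 ± 0.37) were higher in LE in D3.5 knockouts. Nedd4l in D0.5 knockouts was called at 0.36 ± 0.14 (adjusted p = 0.0391), but the difference was -0.08 on the TPM scale and the call was lost without mouse 26 or 27 (adjusted p = 0.139 and 0.0835).

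LE and U of a mouse come from the same animal, and with the mouse as a block 7 of the 8 genes were called in D0.5 knockouts in place of 4, beside 41.8% of all genes, adding Scnn1a (0.94, adjusted p = 0.0122), Scnn1b (1.55, 0.03) and Scnn1g (1.70, 0.00289). The block also added Sgk1, lower in LE, in D0.5 controls (-0.71, adjusted p = 0.0386). In D3.5 controls it added Scnn1g (2.33, adjusted p = 0.0285), which holds 24 counts in LE and 12 in U there and passed the filter on low counts only through other groups. Between DU and U none of the 8 was called, nor any of 16782 genes (0% called). Among the 8, 2 had an unadjusted p under 0.05 in edgeR, and DESeq2 and limma called 0. DESeq2 gave an adjusted p to only 1165 genes here, and a gene without one could not be called. With the mouse as a block 4 of the 8 were called, lower in DU: Scnn1a (-0.28, adjusted p = 0.0266), Scnn1b (-0.31, 0.00638), Spint1 (-0.34, 0.00304) and Spint2 (-0.38, 0.00196). In that blocked fit 42.6% of all genes were called.

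Other genes of the pathway were read from 3 lists. In LE at D0.5, of 19 genes that process or regulate ENaC, 5 rose and 3 fell in knockouts, with a median log2 fold change of 0.19 against -0.01 over all genes. Of all genes 23.6% were called there, 10.9% higher and 12.6% lower. Sgk3, a kinase related to Sgk1, fell from 54.8 to 18.8 CPM (-1.54 ± 0.20, adjusted p = 3.57e-06). Cnksr3, a scaffold induced by aldosterone, rose from 19.8 to 34.9 CPM (0.82 ± 0.12, adjusted p = 1.72e-05), and Wnk4, a kinase of salt transport, from 14.5 to 34.9 CPM (1.27 ± 0.20, adjusted p = 4.28e-05). Of 11 tested genes of the sodium pump and sodium-proton exchange, 4 rose and 1 fell (median 0.48). Atp1b1, a beta subunit of the pump, rose from 370 to 800 CPM (1.11 ± 0.18, adjusted p = 4.1e-05), and the pump regulator Fxyd5 from 8.96 to 46.9 CPM (2.39 ± 0.40, adjusted p = 7.75e-05). Fxyd4, another pump regulator, fell from 477 to 134 CPM (-1.83 ± 0.25, adjusted p = 5.97e-06).

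Among 25 genes of chloride and bicarbonate secretion, 5 rose and 6 fell in knockout LE at D0.5, with a median of -0.26. Clcn2, a chloride channel, fell from 60.0 to 2.98 CPM (-4.32 ± 0.28, adjusted p = 3.87e-11), and Slc26a9, an anion transporter that works with Cftr, from 285 to 59.6 CPM (-2.26 ± 0.31, adjusted p = 5.08e-06). Ano6, a lipid scramblase and ion channel, rose from 51.1 to 108 CPM (1.08 ± 0.19, adjusted p = 9.32e-05). In U at D0.5, where 4.98% of all genes were called, the counts of higher and lower genes were 1 and 2 of 19 for ENaC regulation, 0 and 1 of 11 for the pump list and 1 and 4 of 23 for chloride. In DU, where 8.06% were called, they were 1 and 2, 1 and 1, and 3 and 3 of as many tested.

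At D3.5, where 13.5% of all genes were called, the ENaC list in LE held 6 higher and 5 lower genes in knockouts, with a median log2 fold change of -0.002. Leaving out knockouts 35, 36 and 37 left 4 called, beside 7.18% of all genes. With all libraries, Nr3c2, the mineralocorticoid receptor, rose from 2.60 to 7.86 CPM (1.59 ± 0.33, adjusted p = 0.00171). Wnk4 fell from 382 to 165 CPM (-1.22 ± 0.26, adjusted p = 0.00175), opposite to its D0.5 difference, and its partner kinase Oxsr1 from 200.4 to 119 CPM (-0.75 ± 0.16, adjusted p = 0.00198). The pump list held 1 called gene, Fxyd3, higher at 144 against 79.3 CPM (0.86 ± 0.29, adjusted p = 0.047), and no gene of that list was called when control 15 or 16 or knockout 34, 35, 36 or 37 was left out. The chloride list again held 5 higher and 6 lower genes (median -0.02). Kcnn4 and Kcnq1, potassium channels that supply the drive for chloride exit, rose from 1.04 to 6.26 CPM (2.54 ± 0.35, adjusted p = 1.66e-05) and from 11.2 to 42.4 CPM (1.93 ± 0.32, adjusted p = 1.36e-04). Slc26a6, a chloride-bicarbonate exchanger, fell from 102 to 1.44 CPM (-6.14 ± 1.01, adjusted p = 1.43e-04).

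Across the 12 group means, as log2(TPM + 0.1), the genes whose pattern was most like that of Scnn1g were Slco1a5 (Pearson r = 0.971), Ifitm1 (0.957), Ffar4 (0.946), Rhov (0.939) and Cdh16 (0.935). In LE, Slco1a5 averaged 0.995 TPM in D0.5 controls and 96.3 TPM in D0.5 knockouts, and 0 and 8.17 TPM at D3.5. Within the channel, r with Scnn1g was 0.80 for Scnn1b and 0.391 for Scnn1a. For Cftr the closest were Ifne (0.992), C3 (0.987), Pmaip1 (0.986), Prom1 (0.983) and Mpzl2 (0.982). Ifne, an interferon of the female reproductive tract, averaged 150 TPM in control and 19.6 TPM in knockout LE at D0.5, and 7.65 and 7.64 TPM at D3.5. Spint2 followed Cftr with r = 0.926. The 12 groups share tissue composition and many of the same mice, so these values describe a likeness of pattern only; with a pseudocount of 1, 3 of the 5 genes stayed among the first 5 for Scnn1g and 1 of 5 for Cftr.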

How the data were processed

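Libraries were prepared with a NEBNext Ultra RNA kit, per the labels' protocols, which do not state strand, so reads of an overlapping antisense gene could not be separated. The deposited tables hold estimated counts and TPM per gene, which the authors made with kallisto 0.46.1 and the GRCm39 build, per the submitters' processing notes. The gene annotation and the summing to genes are not given in the sources used here.

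Estimated counts were rounded, filtered (filterByExpr, minimum count 10, minimum total 15) and tested with edgeR 4.0.16 (quasi-likelihood, TMM, R 4.3.3) in 1 fit per tissue over its 4 groups, or 1 fit over 2 tissues for tissue comparisons. P-values were adjusted by Benjamini-Hochberg over all genes of the fit and called under 0.05. Within a tissue they measure the spread between mice. The fits over 2 tissues hold no term for the mouse and treat libraries of 1 mouse as independent, except where the mouse is a block. The authors' TPM served for levels between genes or tissues. Tests on simulated counts for LE at D0.5 (15431 genes) recovered 40.8%, 81.6%, 96% and 100% of genes changed by 1, 2, 3 and 4 on the log2 scale. Of the simulated calls 4.24% were false. Only 50 genes of each size were changed there, whereas 23.6% of all genes were called in the data, so these rates need not hold for the data.

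LE and U libraries with 1 number come from the same mouse, as do U and DU. Deviations from group means correlated between them with a median r of 0.343 (17 mice, lowest -0.234) and 0.419 (13 mice, lowest 0.124). Alternatives were median-of-ratios size factors, no filter, DESeq2 1.42.0, limma 3.58.1 on log2(TPM + 1) and log2(TPM + 0.1), a fit of only the groups compared, the mouse as a block, and leaving out each library in turn, LE knockouts 35 to 37 together, or U knockout 33. Within each group, counts of any pair of libraries differed beyond sampling noise (lowest chi-square per degree of freedom 9.76).

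The 8 genes, the pathway lists and the marker lists were chosen with earlier results of these data known. From each pathway list, up to 3 called genes of smallest adjusted p per LE genotype comparison are named. No column of per-sample values was left unused.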

Additional observations from a re-analysis of the deposited data

Results flagged for a closer look

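Of 72 groups of 1 gene with 4 to 10 libraries, 7 held a library whose gap to the nearest other was wide for the group's range. Chance gives about 1 in 20 for normally distributed values, which was not checked for CPM. All 7 were the highest library of their group. Scnn1a stood at 48.5 CPM in knockout LE 26 at D0.5, with the nearest library at 26.5. Scnn1a also stood at 189 CPM in knockout LE 34 at D3.5, where the next was 126, and Spint1 in the same library at 240 CPM, next to 145. Scnn1g stood at 2.43 CPM in control LE 1 at D0.5 (next 1.19) and at 1.83 CPM in knockout U 35 at D3.5 (next 0.256). Cftr stood at 65.1 CPM in knockout LE 24 at D0.5, the next being 32.5. Sgk1 stood at 49.5 CPM in control LE 7 at D0.5, the next being 30.7.

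The knockout difference changed between D0.5 and D3.5, by a test of the change itself, for the following genes, as log2 values with the adjusted p of edgeR's quasi-likelihood test. Among the 8 genes these were Cftr in LE (1.89) and in U (3.21) and Sgk1 in LE (2.45). Among pathway genes in LE the change was -2.48 for Wnk4 (8.04e-06), -0.95 for Oxsr1 (0.00186), -1.65 for Atp1b1 (2.16e-04), 1.45 for Fxyd3 (0.00636), 1.47 for Fxyd4 (0.0108) and -2.80 for Fxyd5 (0.00322). For genes of chloride and bicarbonate secretion it was 2.81 for Clcn2 (2.28e-05), 2.67 for Kcnq1 (2.89e-05), 3.14 for Kcnn4 (9.71e-06), -5.88 for Slc26a6 (8.71e-04) and 4.27 for Slc26a9 (5.52e-06).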

How the results depend on the processing

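The 65 called results of the 8 genes gave 510 values under other settings, of which 489 kept direction and call, 18 lost the call and 3 turned; with a library or mouse left out, 579 of 601 kept both, 22 lost the call and 0 turned. The 3 that turned were Nedd4l in LE against U in D0.5 knockouts, at -0.0817 with log2(TPM + 1), filtered or not, and -0.0838 with log2(TPM + 0.1). The number of the 8 genes called in LE at D3.5 went from 4 to 2 without LE knockouts 35, 36 and 37, and that of the ENaC list from 11 to 4. The share of all genes called went from 13.5% to 7.18% in the same setting. In U at D3.5 it went from 0 to 1 without the library labelled knockout 33 (0 to 1 over the left-out libraries). In DU at D0.5 it went from 3 to 5 with DESeq2 and ranged from 0 to 4 with a library left out (1 without control 5, 0 without knockout 25, 1 without knockout 26). In DU at D3.5 it was 1 with DESeq2 and 1 with only the groups compared. For the change of the knockout difference between days, limma on log2(TPM + 1), filtered or not, gave 2 in U and 1 in DU, and DU ranged from 0 to 1 with a library left out (1 without knockout 32). With the mouse as a replicate block it was 7 for LE against U in D0.5 knockouts and 4 for DU against U. The pump list at D3.5 in LE, with 1 gene called, gave 0 without the filter, with only the groups compared or without knockouts 35 to 37, 2 with DESeq2 and with limma on log2(TPM + 1), filtered or not, and 0 to 1 with a library left out. With a pseudocount of 1, 3 of the 5 genes most like Scnn1g and 1 of the 5 most like Cftr were shared. The cause of these changes was not tested, other than that smaller fits hold fewer libraries.

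Counts over all genes moved most in the small groups. In U at D0.5, 809 genes were called, 361 with only the groups compared and 1286 with DESeq2; in DU at D0.5 the numbers were 1306, 411 and 2173. In U at D3.5, 3 were called, 78 with DESeq2 and 112 without knockout 33; in DU at D3.5, 93, and 244 with DESeq2 or 202 with only the groups compared. The change between days gave 232 genes in U (523 with DESeq2) and 304 in DU (903). In LE at D3.5, 2105 were called, 3806 with limma on log2(TPM + 0.1) and 1131 without knockouts 35 to 37. DU against U gave 0, 6 with limma and 7082 with the block. DESeq2 called 157 there, of only 1165 genes to which it gave an adjusted p.

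On the scale of log2(TPM + 0.1) the median gene moved by 0.42 in LE at D3.5, and the share of calls that were higher went from 57.7% to 91.0%. For knockout LE between days the median moved by 0.47 (51.4% to 77.6%), and for the LE change between days by 0.40 (57.7% to 81.6%). The share also went from 47.4% to 60.4% in U and from 46.2% to 63.5% in DU between days in controls, from 42.8% to 57.6% and from 42.7% to 67.7% in knockouts, and from 48.2% to 24.5% in DU at D0.5. For LE against U it went from 43.4% to 21.3% and from 41.1% to 23.2% at D0.5, and from 47.0% to 24.6% in D3.5 controls. With only the groups compared it went from 40.5% to 26.3% in U and from 48.2% to 31.9% in DU at D0.5. Fits of only the groups compared were the same fit for DU against U and could not be made for the change between days; Scnn1g failed their filter in U and DU at D3.5, in control U between days and in D3.5 controls for LE against U. Depth limits Scnn1g at D3.5 in U and DU, where a group holds 12 to 50 counts.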

Other observations

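Between D0.5 and D3.5 the pathway lists held genes called in both directions in LE. Of all genes 44% were called in controls, 22.8% as lower, and 41.6% in knockouts, 20.2% as lower. Of 19 ENaC genes 8 rose and 7 fell in controls, and 10 rose and 6 fell in knockouts. Wnk4, a kinase of salt transport, rose from 14.5 to 382 CPM in controls (log2 fold change 4.72 ± 0.24, adjusted p = 3.15e-14, edgeR's quasi-likelihood test) and by 2.24 on the log2 scale in knockouts. Of the 11 tested pump and exchanger genes 4 rose and 2 fell in controls, and 3 rose and 4 fell in knockouts. Atp1b1, the pump's beta subunit, rose from 370 to 1741 CPM in controls (2.23) and by 0.58 in knockouts.

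Of 25 chloride and bicarbonate genes 12 fell and 4 rose in controls, and 9 fell and 5 rose in knockouts. Slc26a9, the anion transporter that works with Cftr, fell from 285 to 0.95 CPM in control LE (-8.23, adjusted p = 6.1e-12) and in knockouts the difference was -3.96 (adjusted p = 3.47e-09). Kcnn4, a potassium channel, fell from 54.6 to 1.04 CPM in controls (-5.67) and by -2.52 on the log2 scale in knockouts. Slc26a6, the chloride-bicarbonate exchanger, rose from 6.58 to 102 CPM in controls (3.94), whereas in knockouts it differed by -1.94 (adjusted p = 0.0633) and was not called.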
